A study of Mus musculus with 2 samples.

Results

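Igfbp1 and Igfbp2, which encode insulin-like growth factor binding proteins that the liver secretes, were described together with Igfbp4, the insulin receptor gene Insr, the receptor adaptor genes Irs1 and Irs2, and Foxo1. These 7 genes were taken by symbol from the 19465 genes of the count tables, and each had a single entry. They were chosen by earlier results of the same data, namely the ratios of Igfbp1 and Igfbp2 between the sections, so these ratios are given as a description. RNA was counted on liver sections of 8-week-old female littermates by the Visium assay of 10x Genomics for tissue fixed in formalin and embedded in paraffin, in which a pair of probes is ligated on its target RNA and counted by unique molecular identifier (UMI) on barcoded spots. The AEG-1-WT mouse (WT below) had wild-type astrocyte elevated gene-1 (AEG-1, gene Mtdh), a scaffold protein. The AEG-1-C75S mouse (C75S below) carried a CRISPR/Cas9 knock-in that replaces the palmitoylated cysteine of AEG-1 by serine and was bred from heterozygous parents. Both were untreated (naïve) and sampled from the same lobe. Each genotype had 1 section of 1 animal, so the ratios below compare 2 libraries and carry no test between genotypes, and their intervals cover counting error only. Neither the feeding state nor the time of day at harvest is given in the sources used here, although liver Igfbp1 is known to vary with both, and they do not say whether the C75S mouse was homozygous.

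Insulin binds its receptor, which phosphorylates the insulin receptor substrates, and PI3-kinase and AKT then carry the signal to FOXO1. AKT keeps FOXO1 out of the nucleus, and FOXO1 in the nucleus activates genes of the fasted hepatocyte, among them Igfbp1, Irs2 and G6pc. Most binding proteins hold insulin-like growth factors in the circulation and limit their access to the receptor, and Igfbp2 is a known marker of mid-lobular hepatocytes.

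The FOXO factors bind short sequences of the form TGTTTAC and, in insulin response elements, TGTTTTG. Both were searched on both strands in the 250 bases before each transcription start that the promoter reference gives for 6 members (build GRCm38.p6). Insr was not analysed for this. The Igfbp4 window (chr11:99040994-99041243) lies inside the span of the gene, which begins at 99040005, so the bases before that position were not searched. TGTTTAC was found before none of the 6. TGTTTTG, or CAAAACA on the other strand, was found before Igfbp1 (bases -108 to -102 from the start), before Irs1 (-111 to -105 and -32 to -26) and before Irs2 (-37 to -31), and before neither Igfbp4 nor Foxo1 nor either start of Igfbp2. Of 32851 such windows of the reference, 5.56% held TGTTTTG and 3.17% held TGTTTAC. A window can hold both motifs, and a match is a description of letters, not of binding. The matches are shown in their context because they lie before Igfbp1 and Irs2, whose levels were higher in C75S, and before Irs1. The Irs1 level was lower by less than 1.5-fold, except after thinning of the spots to an equal depth. Igfbp2 was higher without a match. The whole Igfbp1 window (chr11:7197537-7197786, plus strand) and the stretches around the matches of Irs1 (chr1:82291445-82291570, minus strand) and Irs2 (chr8:11008940-11008986, minus strand) read as follows, 5′ to 3′, with the motif in capitals.
Igfbp1: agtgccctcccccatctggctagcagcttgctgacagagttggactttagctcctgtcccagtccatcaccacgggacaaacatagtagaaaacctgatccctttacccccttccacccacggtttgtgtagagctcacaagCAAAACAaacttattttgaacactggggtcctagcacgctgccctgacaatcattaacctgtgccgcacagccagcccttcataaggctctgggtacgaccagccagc
Irs1: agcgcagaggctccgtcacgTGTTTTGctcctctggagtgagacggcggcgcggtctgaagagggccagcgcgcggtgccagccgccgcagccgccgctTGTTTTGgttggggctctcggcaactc
Irs2: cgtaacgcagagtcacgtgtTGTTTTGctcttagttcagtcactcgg

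After removal of spots with more than 50000 UMIs, the WT section had 2309 spots with 42246988 UMIs (median 16830 per spot) and the C75S section 2163 spots with 41674347 UMIs (median 18808). The spots nearest that limit had 49781 and 49504 UMIs inside it and 50679 and 50791 outside it. In both sections the same slide barcodes recur (1896 shared), which follows from the fixed barcode set of the slides. Mtdh itself was at 74.4 UMIs per 1000000 UMIs (CPM) in WT and 73.3 in C75S. The assay counts ligated probes rather than reading the RNA itself, so this level does not check the genotype. The hepatocyte markers Alb, Apoa1, Ttr and Cps1 summed to 170985 and 175493 CPM, and none of the 4 differed by 1.5-fold. Portal connective tissue markers were at least 1.5-fold lower in C75S in 4 of 4 (sum 33.2 against 90.8 CPM). Cholangiocyte markers were so in 2 of 4 (87.7 against 119 CPM), with all 4 log2 ratios from -1.06 to -0.42. Kupffer cell markers were at least 1.5-fold higher in 1 of 5, Marco (sum 1159 against 866 CPM), but all 5 were higher, at 0.10 to 1.62. Red blood cell markers were at least 1.5-fold lower in 2 of 3 (404 against 611 CPM), and all 3 were lower, at -0.61 to -0.40. Neither stellate cell markers (703 against 551 CPM, 0.07 to 0.42) nor sinusoidal endothelial markers (404 against 389 CPM, -0.46 to 0.12) had a marker past 1.5-fold. Their part in the results below was not tested, other than by leaving out the portal tract spots.

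Over the whole sections, Igfbp1, Igfbp2 and Irs2 were at least 1.5-fold higher in C75S, and Igfbp4, Irs1, Insr and Foxo1 differed by less than that in either direction. These 3 of 7 members stand beside 1.87% of the 11253 genes with at least 100 UMIs that were as much higher and 4.08% that were as much lower. All 7 members were among the 11253. The members were chosen with such ratios known, so this comparison is a description. The median gene lay at a log2 ratio of -0.05, with the 5th and 95th percentiles at -0.53 and 0.38. A spot covers several cells, so fewer cells of a type and less RNA per cell cannot be told apart in any of these values.

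Igfbp1 encodes the binding protein that insulin lowers most directly in hepatocytes. It had 2063 UMIs in WT, or 48.8 CPM (95% Poisson interval 46.7 to 51.0), and 12881 UMIs in C75S, or 309 CPM (304 to 314). The C75S level was 6.33-fold the WT level, a log2 ratio of 2.66 (2.59 to 2.73), and 5 of the 11253 genes had a higher ratio. The ratio lay between 2.66 and 2.72 under the 8 other scalings, depths and spot sets tried.

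Igfbp2, whose product also binds insulin-like growth factors in the circulation, had 45220 UMIs in WT and 98757 in C75S. Its level was 1070 CPM (1061 to 1080) in WT and 2370 CPM (2355 to 2385) in C75S. The log2 ratio was 1.15 (1.13 to 1.16), a 2.21-fold difference, which ranked 46 of 11253. Igfbp1 and Igfbp2 lay above the 95th percentile of all genes, but they were chosen by these ratios, so their place is a description only.

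Igfbp4, a further hepatic binding protein, went the other way and by little. Its level was 1792 CPM (1779 to 1805) in WT and 1459 CPM (1447 to 1470) in C75S, a log2 ratio of -0.30 (-0.31 to -0.28). That is 1.23-fold lower, within the 5th to 95th percentile of all genes.

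The receptor gene Insr was nearly level between the sections. It had 3212 UMIs in WT (76.0 CPM, 73.4 to 78.7) and 3285 in C75S (78.8 CPM, 76.2 to 81.6), and the interval of its log2 ratio, 0.05 (-0.02 to 0.12), includes 0.

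The adaptor genes, whose products link the receptor to PI3-kinase, differed from each other. Irs2 had 33.4 CPM (31.7 to 35.2) in WT and 54.2 CPM (52.0 to 56.5) in C75S. Its log2 ratio was 0.70 (0.60 to 0.80), or 1.62-fold, rank 137 of 11253. With every spot thinned to 3000 UMIs it was 0.48, below 1.5-fold, from 259 and 338 UMIs left by a single random draw. With each spot given equal weight it was 0.72. Irs1 had 21.2 CPM (19.8 to 22.6) in WT and 17.3 CPM (16.0 to 18.6) in C75S, a log2 ratio of -0.29 (-0.44 to -0.15). Thinning turned it to 0.20, from 133 and 143 UMIs left by the same draw. Under the 7 alternatives other than thinning it lay between -0.29 and -0.24, and it was -0.29 with each spot given equal weight. Irs1 was thus lower in every setting but the thinned one.

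Foxo1, the gene of the transcription factor, was not higher in the section with more Igfbp1. It had 63.0 CPM (60.6 to 65.4) in WT and 52.1 CPM (49.9 to 54.4) in C75S, a log2 ratio of -0.27 (-0.36 to -0.19). These are transcript levels, and neither the place nor the phosphorylation of the protein was measured.

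**Figure D1:**
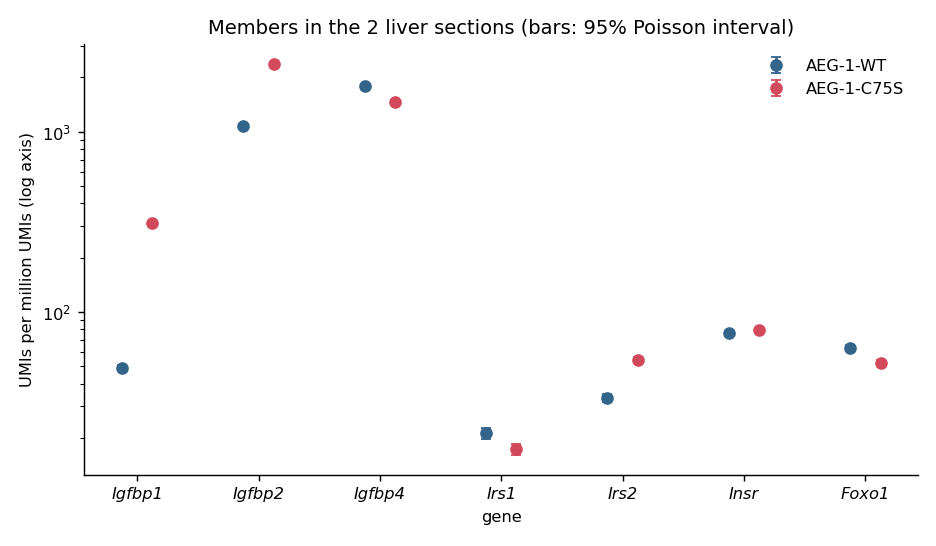
CPM (log axis) of the 7 members in the WT and C75S sections, 1 point per section, with the 95% Poisson interval as bars (mostly smaller than the point). Igfbp1 stands at 48.8 and 309 CPM, Igfbp2 at 1070 and 2370 and Irs2 at 33.4 and 54.2, and the other 4 genes lie within 1.5-fold. Probes differ between genes, so heights of different genes are not comparable.

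To place the members within the liver lobule, the spots of each section were ranked by the ratio of the periportal gene Cyp2f2 to the pericentral gene Cyp2e1 and divided into 5 bins of equal size, from the portal bin (bin 1) to the central bin (bin 5). Genes not used for the ranking ran the same way in both sections. From the portal to the central bin, Hal went from 363 to 83.9 CPM in WT and from 320 to 83.8 in C75S, and Cyp1a2 went from 163 to 871 and from 167 to 760. Each bin had 432 to 462 spots. Levels are relative to the total of their bin, and the median gene had a central-over-portal log2 ratio of 0.13 in WT and 0.10 in C75S.

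Of the 7 members, Igfbp1 and Irs1 were at least 1.5-fold higher in the central than in the portal bin in WT, beside 5.03% of 8611 genes, and Igfbp1, Irs1 and Irs2 were in C75S, beside 4.53% of 8602 genes. No member was 1.5-fold lower, against 2.68% and 1.99% of genes. All 3 of C75S fell below 1.5-fold under some alternative. Without the 20 most abundant genes in the totals, Igfbp1 was at a log2 of 0.48 (0.40 to 0.57) and Irs2 at 0.56 (0.37 to 0.75). Igfbp1 was also at 0.56 (0.47 to 0.65) without the portal tract spots. Irs1 was at 0.56 (-0.24 to 1.39) after thinning. The members' values along the axis follow, in order from the portal to the central bin.

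Igfbp1 had 33.4, 42.2, 47.7, 55.1 and 65.8 CPM in WT. In C75S it had 245, 274, 317, 339 and 370 CPM. Each bin was above the one before it in both sections, though the intervals of neighbouring bins met from bin 2 to bin 5 in WT and for bins 3 and 4 in C75S, and the highest WT bin was far below the lowest C75S bin. The central bin was 1.97-fold the portal bin in WT (log2 0.98, 0.76 to 1.20) and 1.51-fold in C75S (0.59, 0.51 to 0.68), at the edge of the 1.5-fold limit. Leaving the 20 most abundant genes out of the totals put the C75S value at 0.48, and leaving out the portal tract spots put it at 0.56.

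Igfbp2 was highest in the middle bin of both sections. Its levels were 1061, 1152, 1222, 1027 and 867 CPM in WT. They were 2401, 2527, 2686, 2305 and 1936 CPM in C75S. The middle bin stood above the mean of the end bins by a log2 of 0.34 (0.31 to 0.38) in WT and 0.31 (0.29 to 0.34) in C75S, and the 5 bins had the same order of levels in both. The central bin was the lowest, at a log2 of -0.29 (-0.34 to -0.25) and -0.31 (-0.34 to -0.28) against the portal bin. Every C75S bin exceeded every WT bin.

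Igfbp4 went from 1711 to 1867 CPM in WT and from 1402 to 1526 CPM in C75S. Its central-over-portal log2 ratios, 0.13 (0.09 to 0.16) and 0.12 (0.08 to 0.16), were close to those of the median gene, and without the 20 most abundant genes in the totals they were 0.01 in both sections.

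Irs1 had 16.3, 18.3, 20.8, 23.1 and 27.4 CPM in WT and 13.2, 15.4, 18.6, 15.3 and 23.8 CPM in C75S. The central bin was 1.67-fold the portal bin in WT (log2 0.74, 0.42 to 1.07) and 1.80-fold in C75S (0.85, 0.50 to 1.20). The portal bins rest on 130 and 106 UMIs.

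Irs2 had 29.3, 28.1, 33.3, 36.1 and 40.3 CPM in WT and 45.3, 43.5, 50.4, 59.7 and 72.1 CPM in C75S. The highest WT bin, the central one, was thus below the lowest C75S bin, although their intervals met. The central bin was 1.38-fold the portal bin in WT (log2 0.46, 0.21 to 0.71) and 1.59-fold in C75S (0.67, 0.48 to 0.86).

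Insr lay between 71.9 and 82.3 CPM in WT and between 74.5 and 88.4 CPM in C75S. Foxo1 lay between 58.0 and 69.4 CPM in WT and between 42.6 and 61.1 CPM in C75S. The lowest Foxo1 value was in the middle bin of C75S, at a log2 of -0.42 (-0.61 to -0.24) against both ends, where the WT middle bin was at 0.05 (-0.10 to 0.20). In that bin the Foxo1 log2 ratio of C75S over WT was -0.66 (-0.86 to -0.47), and in the other bins it lay between -0.24 and -0.14. This dip was noticed after the values were seen.

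**Figure D2:**
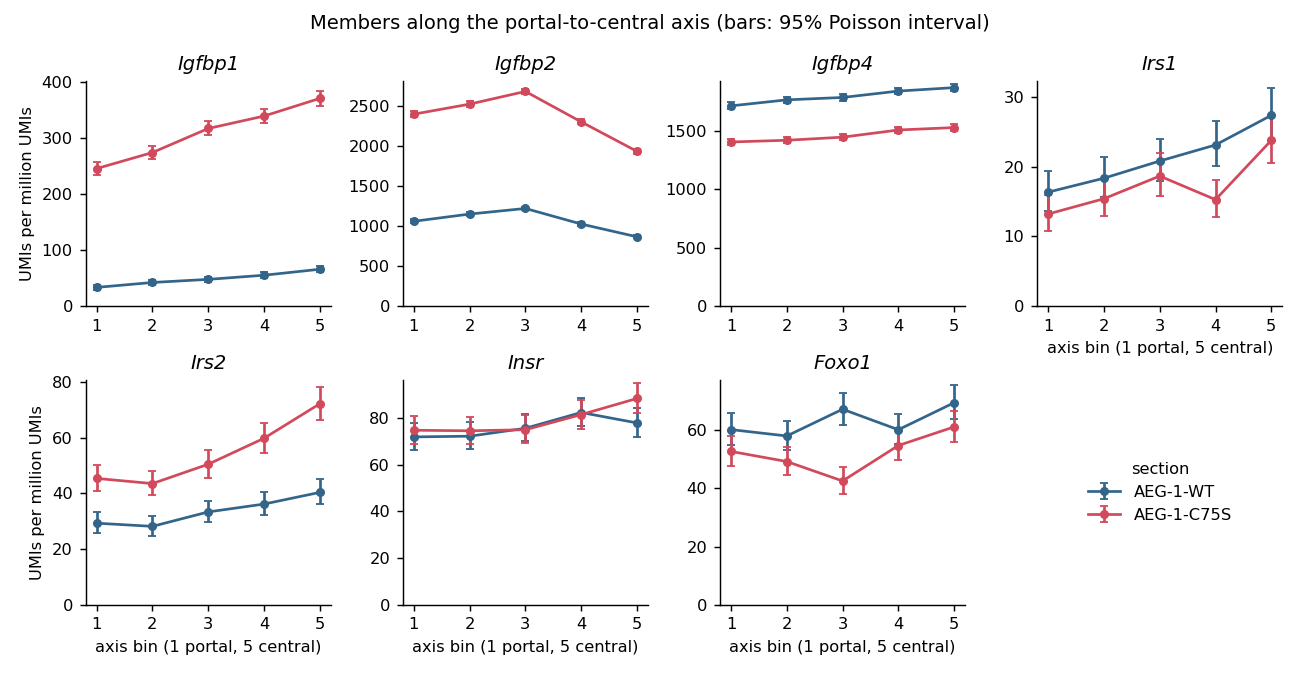
CPM of each member in the 5 bins of the axis from portal (1) to central (5), WT and C75S as separate lines, with 95% Poisson intervals as bars and every vertical axis starting at 0. Igfbp1 is higher in each bin toward the centre in both sections, Igfbp2 peaks in the middle bin of both, and neither gene's lines overlap.

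The section ratio was present along the whole axis for Igfbp1, Igfbp2 and Irs2. For Igfbp1 the C75S level was 7.34-, 6.49-, 6.63-, 6.15- and 5.63-fold the WT level from the portal to the central bin. The log2 ratio was thus lower in the central bin by 0.38 (central minus portal -0.38, interval -0.61 to -0.15), while the absolute difference in CPM was larger there. That value lies within the 5th to 95th percentile, -0.42 to 0.40, of the same difference over 8392 genes. Those genes were not matched to Igfbp1 on UMIs, so counting error of genes with fewer UMIs can widen this range. The ranking genes also differed less between the ends in C75S, with central-minus-portal differences of 0.44 for the periportal Cyp2f2 and -0.23 for the pericentral Cyp2e1. With bins cut on both sections together, the central bin held 578 WT and 316 C75S spots. The Igfbp1 gradient was then 0.90 in WT (0.69 to 1.11) and 0.63 in C75S (0.54 to 0.71), still lower in C75S. These intervals meet, but that does not show equal gradients, and no interval of their difference was computed. The part of the axis itself in the lower central ratio was not tested. For Igfbp2 the log2 ratios were 1.18, 1.13, 1.14, 1.17 and 1.16, with a central-minus-portal difference of -0.02 (-0.07 to 0.04). For Irs2 they were 0.63, 0.63, 0.60, 0.73 and 0.84, and the difference of 0.21 (-0.10 to 0.52) includes 0. The corresponding intervals of Igfbp4, Irs1, Insr and Foxo1 include 0 as well.

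**Figure D3:**
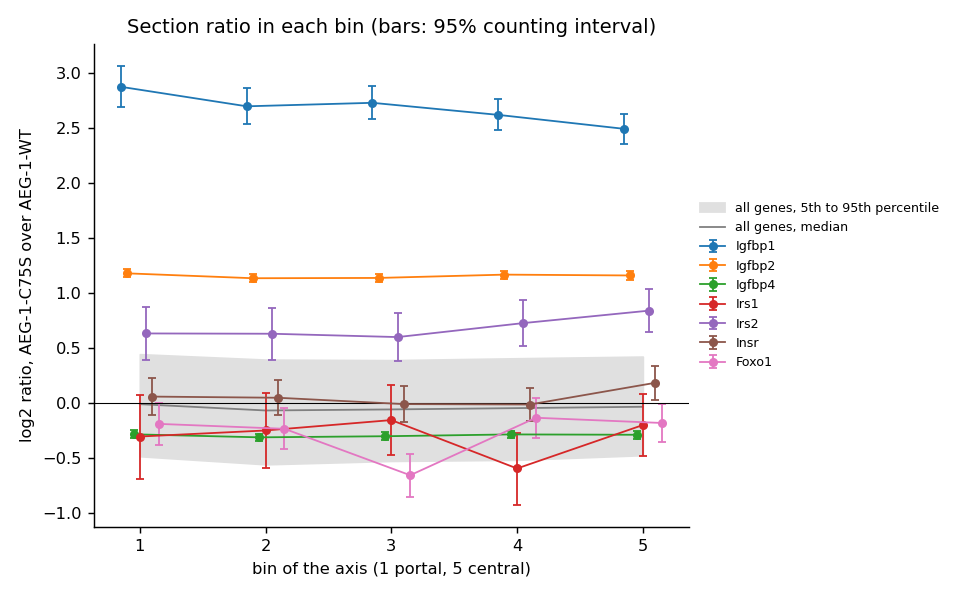
Log2 ratio of C75S over WT of each member in each bin of the axis, with 95% counting intervals as bars, beside the median (line) and the 5th to 95th percentile (band) of all genes with at least 100 UMIs in that bin. Igfbp1 (2.88 to 2.49), Igfbp2 (1.13 to 1.18) and Irs2 (0.60 to 0.84) lie above the band in each bin. Igfbp1 and Igfbp2 were chosen by their section ratios.

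The difference in Igfbp1 was spread over the section rather than carried by few spots. At least 1 Igfbp1 UMI was counted in 56.3% of WT spots (Clopper-Pearson interval 54.2 to 58.3) and 97.7% of C75S spots (97.0 to 98.3). At an equal depth of 3000 UMIs per spot, with 4 and 3 spots of lower depth dropped, the shares were 13.8% (12.5 to 15.3) and 60.0% (57.9 to 62.1). In CPM per spot, 83.4% of C75S spots lay above the 95th percentile of the WT spots and 34.1% above the highest of them, without correction for depth. For Igfbp2, which had a UMI in every spot of both sections, those shares were 86.1% and 42.5%. A UMI of Irs2 was counted in 44.5% of WT and 60.5% of C75S spots, or 10.5% and 14.2% after thinning. By contrast, Irs4, an adaptor gene of other tissues, had none in 2309 and 2163 spots. By the rule of 3 counts this allows up to 0.130% and 0.139% of spots with a UMI at this depth, which is a limit on detection and not on expression.

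**Figure D4:**
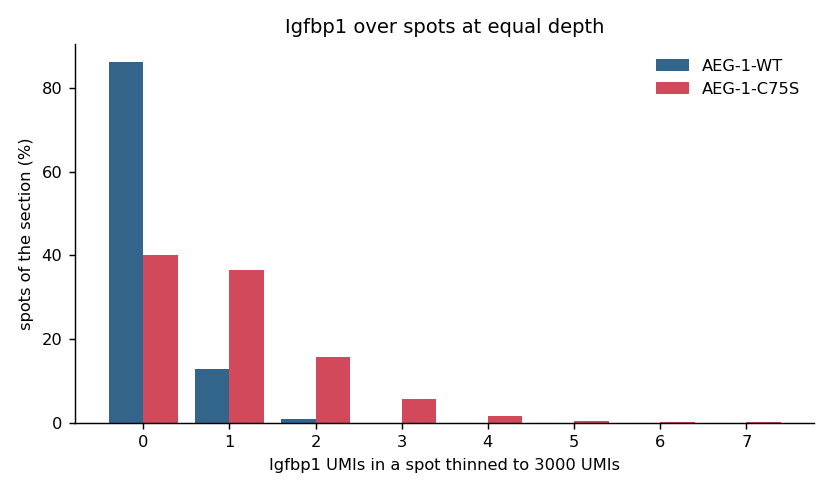
Share of spots (%, vertical axis from 0) by the number of Igfbp1 UMIs left after each spot was thinned to 3000 UMIs, for 2305 WT and 2160 C75S spots. No Igfbp1 UMI remained in 86.2% of WT and 40.0% of C75S spots, and C75S spots reach 7 UMIs where WT spots reach 2.

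The spot-to-spot variation beyond counting error, as a coefficient of variation, was 32.8% for Igfbp1 in WT and 21.2% in C75S, and 26.1% and 20.3% for Igfbp2. Giving each bin its own level left 24.6% and 15.9% for Igfbp1 and 23.4% and 17.2% for Igfbp2. The bin levels were fitted to the same spots, which lowers the value by itself. Of Igfbp1, Igfbp2 and Igfbp4, the last was the most even, at 4.55% and 3.54%. Depth moved with the Igfbp1 level only slightly, from 45.7 to 50.7 CPM over 5 groups of spots by total UMIs in WT and from 303 to 343 CPM in C75S, with the highest in the shallowest C75S spots. Across spots, Igfbp1 and Igfbp2 had a correlation of -0.03 in WT and -0.07 in C75S. With a level for each bin it was 0.01 and 0.02. These are weak values over spots that share a library and hold few UMIs of Igfbp1.

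Spots rich in cholangiocyte markers, which lie at the portal tract, had less of Igfbp1 and Igfbp2. In the 10% of spots richest in cholangiocyte markers, Igfbp1 was at 40.2 CPM against 49.9 in the other WT spots and at 255 against 314 in C75S, log2 ratios of -0.31 and -0.30. Igfbp2 was at 911 against 1090 CPM and at 2186 against 2387 CPM there. In the 10% richest in portal connective tissue markers, Igfbp2 was again lower, at log2 ratios of -0.18 in WT and -0.21 in C75S. Igfbp1 was not, at 0.09 (-0.11 to 0.29) and -0.05 (-0.14 to 0.05). In C75S the spots so chosen were shallower, with a median of 9325 UMIs against 19423.5 in the others (13258 against 19109.5 for the cholangiocyte markers). In WT the connective tissue medians were 17144 and 16796.5. Cholangiocyte and portal connective tissue markers were lower in the C75S section, so the ratios were also computed without the spots richest in them. The section log2 ratios were then 2.67 for Igfbp1 and 1.13 for Igfbp2. Irs2 was lower in the 10% richest in Kupffer cell markers, at -0.47 in WT and -0.26 in C75S. In C75S this was not particular to those spots, while in WT the Irs2 interval lay wholly on the lower side only there. In the 10% richest in cholangiocyte markers Irs2 was at -0.15 (-0.41 to 0.11) in WT and -0.50 (-0.76 to -0.25) in C75S. In those richest in red blood cell markers it went the other way, at 0.20 (-0.04 to 0.43) in WT and 0.32 (0.09 to 0.53) in C75S. The part of the axis in these values was not tested.

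The pathway around the members was described with 10 gene lists, counting genes with at least 100 UMIs that were 1.5-fold higher or lower in C75S, against the 1.87% and 4.08% of all genes. The lists were chosen with earlier results of these data known, so the counts are a description only. Among IGF binding proteins and IGF ligands, 2 of 8 were higher (Igfbp1 and Igfbp2) and 1 was lower, Igfbp5, with 396 UMIs in WT and 132 in C75S (log2 -1.57, -1.86 to -1.28), with a list median of -0.19. Igfbp5 is known from connective tissue cells, whose markers were lower in the same section. The part of these cells in the Igfbp5 ratio was not tested. Igf1, the main growth factor made by the liver, had 867 and 926 CPM (log2 0.10), and Igfals, which encodes its partner in the circulating complex, 209 and 168 CPM (-0.32). Of the binding protein proteases and their inhibitors, only Htra1 had enough UMIs, and it was lower at -0.71 (-1.17 to -0.26), from 111 and 67 UMIs.

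In the lists of receptors, adaptors, kinases, inhibitors, the mTOR branch and FOXO factors, Irs2, Trib1, Socs3 and Foxo3 were past 1.5-fold. Of all genes, 1.87% were as much higher and 4.08% as much lower. At those shares a single list of 7 to 13 genes would hold few or none, but the lists named here would hold some such genes between them. Whether the named genes exceed those shares was not tested. None of 7 receptor and clearance genes passed, and their median was -0.06. The one with most UMIs was the growth hormone receptor gene Ghr, at 565 and 489 CPM (log2 -0.21). Irs2 was the only one of 11 receptor adaptors to pass (median -0.14), and none was lower. None of 13 genes from PI3-kinase to AKT passed, with a median of -0.13 and with Sgk2, the most counted, at -0.07. None of 11 genes of the mTOR branch passed, where the translation repressor gene Eif4ebp2 was at -0.06 and the median at -0.07. Of 13 phosphatases and inhibitors of insulin signalling (median 0.00), 2 were higher, namely Trib1 at 0.62 (0.50 to 0.75), whose product is a pseudokinase, and Socs3 at 0.61 (0.46 to 0.75), which encodes a cytokine-induced inhibitor of receptor signalling. Of 13 FOXO factors and regulators (median -0.03), only Foxo3 was past 1.5-fold, and lower, with 17.9 and 11.3 CPM (log2 -0.67, -0.84 to -0.50).

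Of the 22 genes listed as raised by FOXO1 and lowered by insulin, 7 were higher and 1 was lower. Besides Igfbp1 and Irs2 these were Pdk4, which encodes a kinase that shuts down pyruvate dehydrogenase, at 4.31 and 13.5 CPM (log2 1.64, 1.40 to 1.89), and G6pc, the glucose-6-phosphatase gene, at 78.6 and 209 CPM (1.41, 1.35 to 1.47). They also included Txnip, which encodes a thioredoxin-binding protein, at 114 and 252 CPM (1.14, 1.09 to 1.19), the repressor gene Bcl6 at 0.70 (0.57 to 0.83), and Trib1, which stands in both lists. Klf15, a transcription factor gene, was lower at 238 and 138 CPM (-0.79, -0.83 to -0.74). Pck1, the gluconeogenic enzyme gene, was at 1933 and 1564 CPM (-0.31), within 1.5-fold. The median of the 19 listed genes that are no members was 0.04, beside -0.05 for all genes, with 5 higher and 1 lower. This list too was chosen with earlier results known, so its counts are a description only.

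Of 14 genes listed as raised by insulin in liver, 1 was higher and 1 lower, with a median of -0.11. Scd1, the stearoyl-CoA desaturase gene, had 701 and 1413 CPM (1.01, 0.99 to 1.03). Thrsp, a lipogenic regulator gene, had 134 and 43.3 CPM (-1.63, -1.71 to -1.55).

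**Figure D5:**
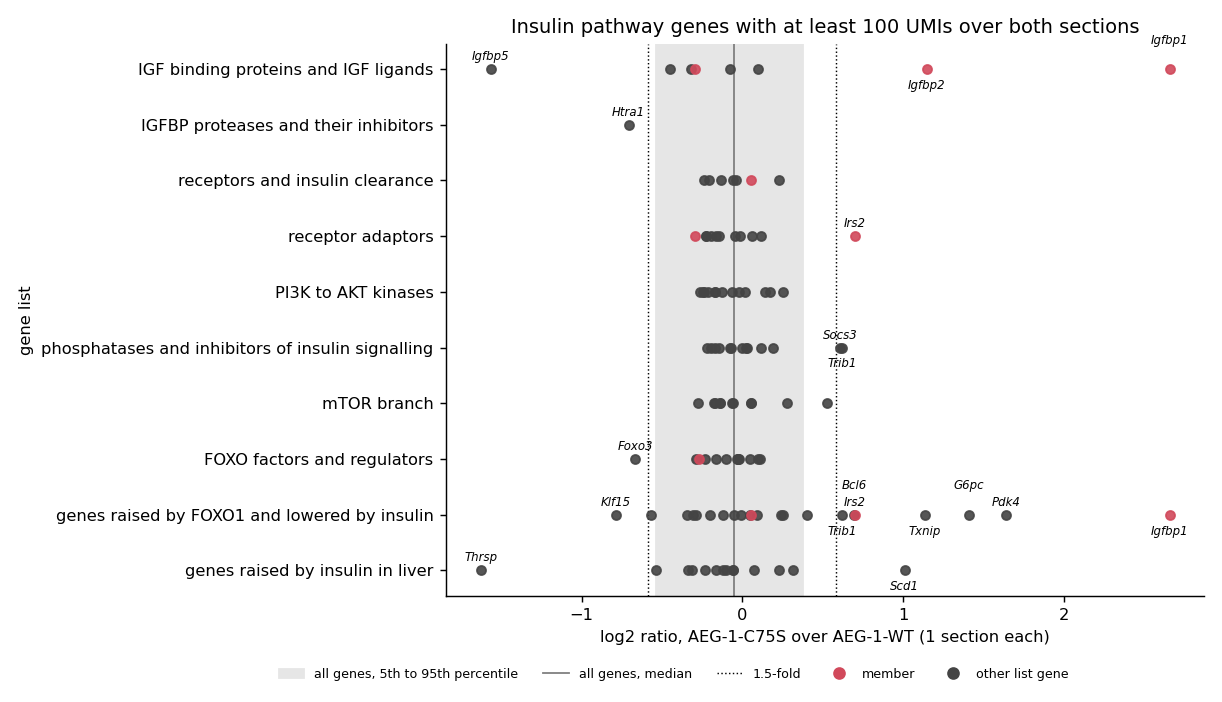
Log2 ratio of C75S over WT of every gene with at least 100 UMIs over both sections in the 10 lists (rows), members in red and other genes in dark grey, with the 1.5-fold limits dotted and the 5th to 95th percentile of all genes shaded. The genes past the limits are named, and the list of genes raised by FOXO1 holds 7 on the higher side and 1 on the lower. The lists were chosen with earlier results of these data known.

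Genes with the pattern most like Igfbp1 over the 10 bins of both sections, by Pearson's r of log2 CPM among 6887 genes with at least 1000 UMIs, were Sdc4 (r = 0.998), Slc25a30 (0.993), Plin2 (0.992), Albfm1 (0.991) and Depp1 (0.991). Depp1 went from 58.9 to 76.4 CPM along the WT axis and from 146 to 231 CPM along the C75S axis. Those most like Igfbp2 were Pzp (0.994), Marco (0.992), Fgg (0.988), Fga (0.986) and Rpn1 (0.984). Marco had 36.8, 43.3, 39.6, 31.7 and 21.8 CPM in WT and 112, 126, 124, 97.3 and 75.1 CPM in C75S, highest in bin 2 of each. In WT, Pzp and Rpn1 were highest in the middle bin like Igfbp2, while Fgg and Fga were highest in the portal bin. None of the genes named as most like Igfbp2 was highest in the middle bin of C75S. The 10 points share 2 libraries and their depth, so these values describe likeness only. They take in the step between the sections as well as the course along the axis.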

How the data were processed

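The deposited tables held raw UMI counts per gene and spot, which the authors made with Space Ranger 2.0.1 on the mm10 reference and probe set; per the labels, Seurat 4.3.0 was used further on. The tables held 0 columns of other samples. Spots with at most 50000 UMIs and 100 to 7000 genes were kept, as in the study's methods. UMIs were summed per section or bin and scaled to 1000000 (CPM), with exact Poisson intervals and Clopper-Pearson intervals of the ratios at 95%. With 1 section per genotype no test was made. A gene counted as higher or lower at 1.5-fold with at least 100 UMIs. Depth was 42246988 and 41674347 UMIs. Ties along the axis were broken by barcode. Genes named were the members, list genes past 1.5-fold (or the most counted), the 5 genes most like Igfbp1 and like Igfbp2, and markers; Igf1, Igfals, Pck1, Irs4 and Mtdh were added after their values were seen. The members and lists were chosen with earlier results of these data known. The alternatives were scalings, depths, spot sets and axes. Python 3.11.15, numpy 2.4.6, scipy 1.17.1, pandas 2.3.3 and edgeR 4.0.16 were used, and the scripts were tested on simulated data. Promoters came from RefSeq, build GRCm38.p6. Proteins were not analysed here.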

Additional observations from a re-analysis of the deposited data

Results flagged for a closer look

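Among the 96 listed genes with at least 100 UMIs in the end bins of each section, 2 had central-over-portal log2 ratios of opposite sign in the sections, with intervals that exclude 0 in each, beside 23 of all 8392 genes (0.274%). Mlst8, which encodes a subunit of the mTOR complexes, was at 0.62 in WT and -0.75 in C75S, from 41 to 66 UMIs per bin. Scd1 was at 0.10 in WT and -0.13 in C75S, from 5397 to 11948 UMIs per bin, below the median gene (0.13 and 0.10) in both sections, and its difference ranked 1334 from the lowest of 8392. Neither was opposite by this measure without the 20 most abundant genes in the totals, a setting chosen for these genes after seeing the data. There Mlst8 was at 0.50 in WT (-0.07 to 1.09) and -0.86 in C75S, and Scd1 at -0.02 (-0.07 to 0.03) and -0.24. The counting interval of the gradient difference excluded 0 for 25 of the 96 listed genes and for 10.3% of all 8392, which were not matched on UMIs. With 1 section per genotype the difference between the genotypes was not tested.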

How the results depend on the processing

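No paired analysis was possible because each genotype had 1 section. The Igfbp1 section ratio, its WT gradient and the count of 3 members past 1.5-fold stayed within their interval or within 1.5 times under each alternative run (the count was 2 after thinning to 3000 UMIs and at 2-fold). The Igfbp2 section ratio was 1.19 when centred on the median gene or without the 20 most abundant genes and 1.20 with TMM factors. The Igfbp1 gradient of C75S was 0.48 without the 20 most abundant genes and 0.71 with the outermost of 10 bins of the axis. The Igfbp2 gradient of WT was -0.41 without the 20 most abundant genes, -0.34 after thinning, -0.46 on an axis of other markers, -0.35 with the outermost of 10 bins and -0.38 without portal tract spots. That of C75S was -0.42, -0.27, -0.42, -0.42 and -0.35 under the same settings and -0.35 with bins cut on both sections together. The Irs1 section ratio reversed to 0.20 after thinning, a single random draw that left 133 and 143 UMIs. With each spot given equal weight and no thinning it was -0.29. Other draws were not made, and the cause was not tested. Of 120 other values, 105 stayed within their interval and 14 moved. No scaling moved the median gene by more than 0.06. Igfbp1, Irs1 and Irs2 had fewer UMIs than spots in the WT section (2063, 894 and 1411 UMIs in 2309 spots), and animals and sections cannot be told apart from genotype.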

Other observations

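G6pc, chosen for its slope along the axis after its values were seen, had 132, 89.3, 66.3, 59.0 and 48.4 CPM from the portal to the central bin in WT, a fall along the whole axis. In C75S it had 232, 225, 219, 188 and 179 CPM, a flatter course at a higher level. Its central-over-portal log2 ratio was -1.45 (-1.62 to -1.28) and -0.38 (-0.47 to -0.28), and the difference of 1.08 (0.88 to 1.27) ranked 13 from the highest of 8392 genes. With 1 section per genotype these values compare libraries, and their intervals cover counting error only.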
